A study of Mus musculus with 7 samples.

Results

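The collagen chains of the mouse were followed in mammary glands of PyV-MT mice on a control diet and on a diet that held 1% conjugated linoleic acid (CLA). The chains were taken as every gene whose symbol reads Col, a number, a and a number, on probe sets that carry a single gene symbol. This gave 42 chains among 18193 genes, of which 11 were fibrillar (types I, II, III, V, XI, XXIV and XXVII), 8 belonged to basement membranes (IV, XV and XVIII), 5 to type VI and 18 to other types. A chain with several probe sets was represented by the brightest, and 33 chains with a mean signal at or above 57.7 were tested together with the other genes above that level, 12497 in all.

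Collagens are proteins built of 3 chains wound into a triple helix. Fibrillar collagens assemble into the cables that give stroma its tensile strength, type IV forms the sheet-like network under epithelium, around fat cells and around vessels, and type VI makes beaded filaments beside both, abundant in fat tissue and muscle. The remaining types decorate fibrils, anchor the basement membrane to the stroma below it, or cross the plasma membrane.

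All glands came from virgin female mice of strain FVB that carried the polyoma virus middle T oncogene (labelled FVB/PyV-Mt), so control and CLA mice shared the oncogene, driven by a promoter not given in the sources used here. The mice ate their chow for 4 weeks and were killed at 8 weeks of age. Of 5 control and 6 CLA animals in the study, 3 and 4 glands enter the comparison, each with its own 1-colour Affymetrix array of 45101 probe sets. Whether a gland held a palpable growth, and which gland of the mouse was taken, are not given.

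The deposited values were MAS5 signals with a trimmed mean of 500.003 on every array. The arrays labelled control replicate 1 and CLA replicate 1 have title numbers that start with 27 and the other arrays numbers that start with 28. What they stand for is not known here, so the values within either set are given for the class medians and for the chains described at most length. The 3′ to 5′ ratio of the Actb control probe sets, which rises as RNA degrades, was 2.78 on CLA replicate 3 and 1.41 to 1.88 on the other arrays, and that of Gapdh was 1.40 against 0.76 to 0.97. The luminal epithelial markers (7 of 7 tested) summed to a signal of 78454 to 97879 in control and 83269 to 89933 in CLA glands, and none of the 8 fibroblast markers was below the filter signal on all arrays. As these are bulk tissues, fewer cells of a type and less RNA per cell cannot be told apart, and the number of arrays limits the precision of each value.

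No collagen chain passed the test between diets. Limma called 0 of the 33 chains at an adjusted p under 0.05, where the background over all genes was 0%, and the smallest adjusted p of a chain was 0.703. Before adjustment, 2 chains with higher signal in CLA glands, Col7a1 and Col9a1, had p under 0.05, against a background of 2.38%, and 0 with lower signal, against 3.01%. The groups did not overlap for 1 chain, Col7a1, which was higher in CLA (background 2.64% higher and 2.67% lower). The log2 change was above 0 for 27 of the 33 chains, with a median of 0.29, while 55.3% of all genes tested had a change above 0 and their median was 0.03. Median centring of the arrays moved the median of all genes to 0.11 and that of the chains to 0.37, with 69.1% of all genes and 30 of the 33 chains above 0. These counts cover the chains that passed the filter, not all 42.

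By class, the changes above 0 numbered 8 of 8 fibrillar, 3 of 7 basement membrane, 3 of 3 type VI and 13 of 15 other chains. The median log2 change was 0.17, -0.07, 0.27 and 0.40 in the same order, and within the arrays whose title numbers start with 27, from 1 array per group, it was 0.34, 0.23, 0.53 and 0.16. The set that starts with 28 gave 0.09, -0.06, 0.15 and 0.42. With limma's array weights, which count arrays that stand apart for less, the changes above 0 numbered 4 of 8 fibrillar, 3 of 7 basement membrane, 2 of 3 type VI and 14 of 15 other chains, with medians of 0.002, -0.07, 0.02 and 0.60. No test was made of a class.

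**Figure D1:**
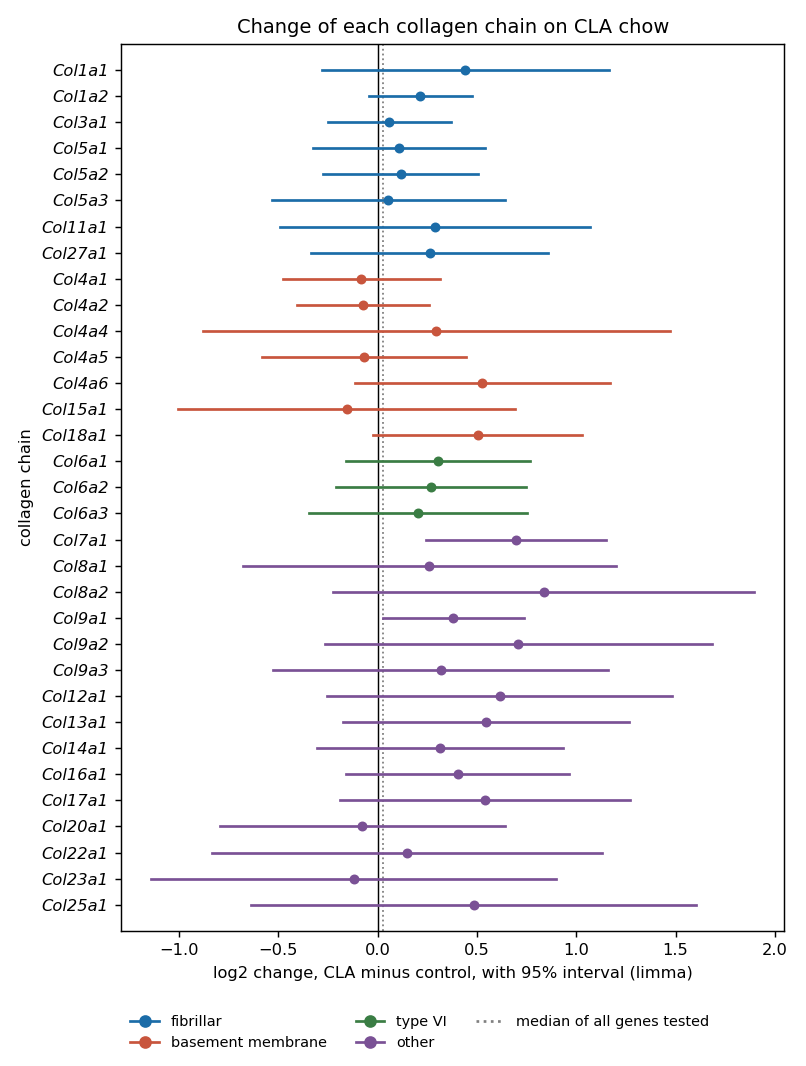
Log2 change of signal, CLA minus control, of the 33 collagen chains above the filter (points), with limma's 95% interval (lines), coloured by class; the dotted line marks the median of all genes tested, 0.03. The intervals of Col7a1 and Col9a1 lie above 0 and those of the other 31 chains include it.

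Type I collagen, the main fibre of stroma, is made of chains from Col1a1 and Col1a2. Col1a1 signal was 3601, 7251 and 7500 in the control glands, in the order of replicates 1 to 3, and 4793, 8297, 11452 and 8502 in CLA replicates 1 to 4. CLA replicates 2, 3 and 4 lay above every control array, and CLA replicate 1 lay below control replicates 2 and 3. The log2 change of Col1a1 was 0.44 ± 0.32 (SE; 95% interval -0.28 to 1.17), the limma adjusted p was 0.952 (unadjusted 0.202), and the 27 and 28 sets of title numbers alone gave 0.41 and 0.34. It was 0.10 without control replicate 1, 0.26 without CLA replicate 3 and 0.68 without CLA replicate 1. With the title number as a block the change of Col1a1 was 0.36, with a limma p of 0.0293 before adjustment and an adjusted p of 0.602. Col1a2 signal was 11255, 13306 and 12391 in control and 14834, 12937, 15700 and 13783 in CLA glands. Only CLA replicate 2 lay within the control range. The log2 change of Col1a2 was 0.22 ± 0.12 (SE), with an interval from -0.04 to 0.47 and a limma adjusted p of 0.923.

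Col3a1, whose type III collagen co-assembles with type I in pliable tissues, had signals of 19001, 23188 and 27746 in control and 23246, 22555, 26448 and 23995 in CLA glands. All 4 CLA values lay within the control range. Its log2 change was 0.06 ± 0.14 (SE), with an interval from -0.25 to 0.37, and a limma adjusted p of 0.997, with 0.29 in the 27 set and -0.06 in the 28 set. Type V collagen, which sets the diameter of type I fibrils, showed changes of 0.11 for Col5a1, 0.12 for Col5a2 and 0.06 for Col5a3, and in each the groups overlapped. Col11a1, a chain of the cartilage counterpart of type V, had 0.29 ± 0.35 (SE), and 0.01 without control replicate 2, 0.11 without CLA replicate 3 and 0.61 without control replicate 3. Col27a1, a less abundant fibrillar type of cartilage, was 334.5, 411.7 and 391.0 in control and 328.7, 417.8, 741.1 and 414.7 in CLA glands. Its log2 change was 0.26 ± 0.27 (SE) and CLA replicate 3 stood far above the other arrays. Without that array the change of Col27a1 was 0.03, and the median of the fibrillar class was 0.04, with 7 of 8 chains above 0.

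The 250 bases before the start sites of Col1a2 and Col3a1, 2 chains of the same fibres, are shown because these windows differ in the textbook motifs they hold. Both come from RefSeq on build GRCm38.p6, plus strand, at chr6:4505368-4505617 and chr1:45311288-45311537. Capitals mark CCAAT (the CCAAT box), GGGCGG (the GC box) and TATAAA (the TATA box), each searched on both strands; none of these motifs overlaps another here.
Col1a2: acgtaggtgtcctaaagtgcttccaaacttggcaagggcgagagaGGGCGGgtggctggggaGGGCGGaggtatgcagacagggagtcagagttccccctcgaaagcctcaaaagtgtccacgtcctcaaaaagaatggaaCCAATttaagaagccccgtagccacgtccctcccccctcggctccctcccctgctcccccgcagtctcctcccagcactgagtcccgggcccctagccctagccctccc
Col3a1: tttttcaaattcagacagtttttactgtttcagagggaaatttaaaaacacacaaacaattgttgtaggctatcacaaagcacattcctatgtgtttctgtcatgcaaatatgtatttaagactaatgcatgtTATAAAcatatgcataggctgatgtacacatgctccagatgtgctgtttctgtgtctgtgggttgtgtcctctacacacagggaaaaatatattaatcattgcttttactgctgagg
The Col1a2 window held 1 CCAAT and 2 GGGCGG matches, and the Col3a1 window 1 TATAAA match. A promoter window was at hand for 33 of the 42 chains. Of these 33, 13 held CCAAT (39.4%, against 33.8% of all 32851 windows of that length), 20 held GGGCGG (60.6% against 32.7%) and 5 held TATAAA (15.2% against 12.4%). The 33 chains had 36 windows, and a chain counted if any of its windows held the motif. The background counts single windows, so the 2 shares differ in unit. A match is a run of letters, at any distance from the start site, and says nothing of binding. A link between these motifs and the changes in signal was not tested.

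Basement membrane chains moved in both directions by array. Col4a1 and Col4a2, whose products form the ubiquitous type IV network, had nearly the same order of arrays. Col4a1 signal was 5694, 8392 and 9301 in control and 6701, 6890, 6954 and 8412 in CLA glands. Col4a2 signal was 2546, 3085 and 3640 in control and 2980, 2740, 2758 and 3165 in CLA glands. For both genes control replicate 1 was the lowest array and control replicate 3, CLA replicate 4 and control replicate 2 were the highest, in that order. All CLA values of both genes lay within the control range. The log2 changes were -0.08 ± 0.18 (SE), with an interval from -0.48 to 0.31, for Col4a1 and -0.07 ± 0.15 (SE), with an interval from -0.40 to 0.26, for Col4a2. The 27 set alone gave 0.24 and 0.23 and the 28 set -0.26 and -0.22, so the sign differed between the sets.

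These 2 genes run in opposite directions from close start sites, and the stretch that spans those sites is shown for that reason. In RefSeq on GRCm38.p6 the start of Col4a1, on the minus strand at 11312826, and that of Col4a2, on the plus strand at 11312805 of chromosome 8, are 21 bases apart. Each gene runs across the start of the other, so this stretch lies within both genes and is not a gap between them. The plus strand of chr8:11312805-11312826 reads as follows, in lower case throughout.
Col4a2 to Col4a1: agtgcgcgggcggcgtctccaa

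The other type IV chains did not share this order. Col4a5 and Col4a6 form the network of certain epithelia and smooth muscle. Col4a5 had a log2 change of -0.07 ± 0.23 (SE) on its brightest probe set and 0.20 on its other one. Col4a6 signal was 1025, 455.9 and 922.2 in control and 1182, 1398, 936.1 and 905.1 in CLA glands. Control replicate 2 stood lowest, and the groups overlapped. Its log2 change was 0.53 ± 0.29 (SE), with an interval from -0.12 to 1.17 and a limma adjusted p of 0.931. It was 0.16 without control replicate 2 and 0.18 with the skeletal muscle marker score of the array as a covariate. On the dimmer probe set of Col4a6 the change was 0.22. Col4a4, of the network of the kidney filter and a few other sites, was dim, at 66.5, 86.0 and 24.9 in control and 90.2, 81.0, 70.8 and 32.6 in CLA glands, and had a change of 0.30 ± 0.52 (SE).

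Col18a1, which encodes the precursor of endostatin at vessel and epithelial basement membranes, was 637.1, 456.8 and 777.9 in control and 669.3, 833.7, 863.9 and 1157 in CLA glands. CLA replicates 2 to 4 lay above every control array and CLA replicate 1 lay within the control range. The log2 change was 0.50 ± 0.23 (SE), with an interval from -0.02 to 1.03 and a limma adjusted p of 0.904, with 0.07 in the 27 set and 0.66 in the 28 set. On the dimmer probe set of Col18a1 above the filter the change was 0.25, and only CLA replicate 4 lay above every control array. Col15a1, the closest relative of Col18a1, had -0.16 ± 0.38 (SE) with signals of 377.5, 1001 and 1084 in control and 457.5, 602.8, 953.9 and 751.4 in CLA glands. Control replicate 1 was the lowest array and control replicate 3 the highest for Col15a1, as for Col4a1 and Col4a2. The endothelial markers (7 of 7 tested) had a score of -0.11, 0.26 and 0.19 in control and -0.02, -0.25, -0.03 and -0.05 in CLA glands, where a score averages, over the genes of a list, each gene's log2 signal after its own 7-array mean was taken off. Their summed signal was 3002 to 3625 in control and 2536 to 3286 in CLA glands. Their part in the values of type IV and XV chains was not tested.

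**Figure D2:**
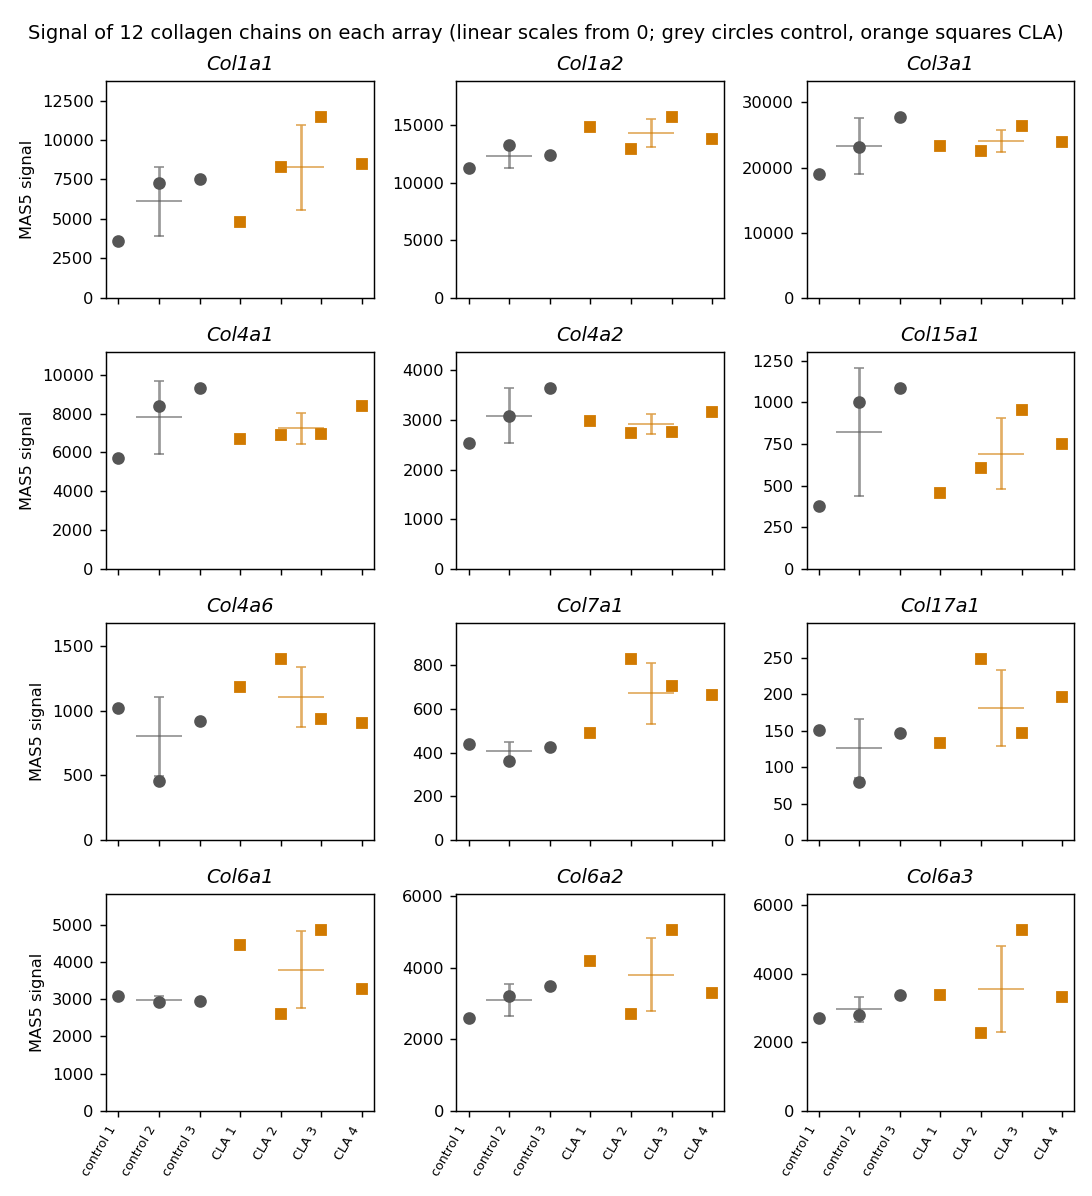
MAS5 signal (linear, from 0) of 12 collagen chains on each array, control in grey circles and CLA in orange squares, with horizontal marks for group means and bars for 1 SD (n = 3 and n = 4). In Col7a1 all 4 CLA arrays, from 489.2 to 826.5, lie above the control arrays, from 361.1 to 437.2, while in the other 11 chains the groups overlap.

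Type VI collagen is a trimer of the chains of Col6a1, Col6a2 and Col6a3. The 3 genes ranked the CLA arrays in the same order. Among the control arrays, replicate 1 was the highest for Col6a1 and the lowest for Col6a2 and Col6a3. Col6a1 signal was 3094, 2928 and 2945 in control and 4454, 2614, 4845 and 3275 in CLA glands. Col6a2 signal was 2606, 3204 and 3478 in control and 4195, 2700, 5041 and 3293 in CLA glands. Col6a3 signal was 2722, 2800 and 3386 in control and 3367, 2275, 5260 and 3330 in CLA glands. For each, CLA replicate 3 was the highest of the 7 arrays, while CLA replicate 2 was the lowest for Col6a1 and Col6a3 and the lowest CLA array for Col6a2. The CLA arrays of this class thus spread more than the control arrays, with a class score of 0.11 ± 0.42 (SD, n = 4) against -0.15 ± 0.11 (SD, n = 3). The log2 changes were 0.30 ± 0.21 (SE), with an interval from -0.16 to 0.77, for Col6a1, 0.27 ± 0.21, from -0.21 to 0.75, for Col6a2 and 0.20 ± 0.25, from -0.35 to 0.75, for Col6a3. Limma's adjusted p ran from 0.944 to 0.995. In the same order the 27 set gave 0.53, 0.69 and 0.31 and the 28 set 0.24, 0.09 and 0.15. Without CLA replicate 3 the median of the class was 0.12, and without CLA replicate 2 it was 0.42. The fibroblast markers (8 of 8 tested) had scores of -0.32, 0.07 and 0.16 in control and 0.05, -0.36, 0.20 and 0.21 in CLA glands, so CLA replicate 2 and control replicate 1 were both low. Their summed signal was 13218 to 15739 in control and 11270 to 20801 in CLA glands, and their part in the type VI values was not tested.

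Of the other collagens Col7a1, which forms the anchoring fibrils below stratified and glandular epithelium, had the smallest p of all chains. Its signal was 437.2, 361.1 and 426.1 in control and 489.2, 826.5, 704.6 and 664.9 in CLA glands. All CLA arrays lay above all control arrays, CLA replicate 1 by the least. The group means were 408.1 ± 41.1 (SD, n = 3) and 671.3 ± 139.5 (SD, n = 4), and the log2 change was 0.70 ± 0.20 (SE), with an interval from 0.24 to 1.15. Limma's p was 0.0067 before and the adjusted p 0.703 after adjustment, so Col7a1 did not pass. The 27 set alone gave 0.16 and the 28 set 0.89, and leaving out single arrays gave 0.59 to 0.84. With the skeletal muscle marker score of the array as a covariate it was 0.26.

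The 250 bases before the start of Col7a1 are shown because it is the only chain tested whose groups did not overlap. They come from RefSeq on GRCm38.p6, plus strand, at chr9:108953336-108953585, with capitals as above.
Col7a1: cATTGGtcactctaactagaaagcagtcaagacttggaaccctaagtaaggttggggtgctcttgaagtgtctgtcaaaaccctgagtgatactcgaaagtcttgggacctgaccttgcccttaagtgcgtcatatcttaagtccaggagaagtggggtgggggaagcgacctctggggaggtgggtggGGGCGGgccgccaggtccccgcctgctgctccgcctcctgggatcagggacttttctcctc
This window held 1 match to CCAAT, as ATTGG on the strand printed, 1 to GGGCGG and 0 to TATAAA.

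Col17a1, the transmembrane collagen of hemidesmosomes that ties basal cells to the basement membrane, was 151.7, 79.1 and 146.5 in control and 133.5, 248.1, 146.3 and 195.9 in CLA glands, with a change of 0.54 ± 0.33 (SE). It was -0.18 in the 27 set, 0.84 in the 28 set and 0.24 without control replicate 2. The groups overlapped, with control replicate 2 lowest and CLA replicate 2 highest. Col4a6, Col7a1 and Col9a1 had the same lowest and highest arrays. Among the 33 chains control replicate 2 was the lowest array for 8, 24.2% against 20.2% of all genes, a share near that background. They were these 4 with Col11a1, Col16a1, Col18a1 and Col23a1, and this grouping was chosen after the values were seen. The basal epithelial markers (6 of 6 tested, Krt5, Krt14, Krt17, Trp63, Oxtr and Myh11) had their lowest score on control replicate 2, at -0.95, and their highest on CLA replicate 2, at 0.40. Their scores on the other arrays were 0.17 and -0.50 on control replicates 1 and 3 and 0.36, 0.32 and 0.19 on CLA replicates 1, 3 and 4. The members differed: Krt17, Trp63 and Oxtr were lowest on control replicate 2, Krt5 and Krt14 on control replicate 3, and Myh11 was lowest on CLA replicate 2. The changes of Myh11 and Oxtr were -0.59 and -0.09, against 0.85 to 1.67 for the 4 others. Their summed signal was 1620 to 3776 in control and 3765 to 5797 in CLA glands. The skeletal muscle score was highest on control replicate 2, at 4.34, and lowest on CLA replicate 2, at -3.79, with a summed signal of 9355 to 81545 in control and 338.7 to 13926 in CLA glands (8 of 8 markers tested). With this score as a covariate the changes of Col17a1 and Col18a1 were -0.21 and -0.0048. The mean muscle score itself was 2.40 in control and -1.80 in CLA glands, so this fit cannot tell muscle from diet. The part of basal cells or muscle in the values of these chains was not tested.

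Type IX collagen, known from cartilage, is a trimer that sits on fibril surfaces and is made from 3 genes. Col9a1 signal was 11822, 7571 and 10225 in control and 11902, 13717, 13512 and 11616 in CLA glands. Only CLA replicate 4 lay within the control range. The log2 change of Col9a1 was 0.38 ± 0.16 (SE), with an interval from 0.03 to 0.74, a limma adjusted p of 0.878, with 0.01 in the 27 set and 0.55 in the 28 set. Without control replicate 2 the change was 0.20. Col9a2 and Col9a3 had another order of arrays. Col9a2 signal was 223.2, 262.0 and 362.7 in control and 277.8, 652.6, 904.3 and 255.8 in CLA glands, and that of Col9a3 was 565.9, 921.1 and 952.1 in control and 648.2, 1396, 1690 and 618.1 in CLA glands. CLA replicates 2 and 3 stood above the rest in both, while CLA replicates 1 and 4 lay within the control range. The changes were 0.71 ± 0.43 (SE) for Col9a2 and 0.32 ± 0.38 for Col9a3.

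CLA replicates 2 and 3 were the highest pair of arrays for 8 of the 33 chains, 24.2%, against 8.30% of all genes tested. CLA replicates 1 and 3 were the highest pair for 6 chains, 18.2% against 4.15%, and control replicate 3 with CLA replicate 3 for 5, 15.2% against 5.27%, so that CLA replicate 3 is common to these pairs. The first 8 were Col7a1, Col8a2, Col9a1, Col9a2, Col9a3, Col16a1, Col25a1 and Col27a1. Col8a2, of the hexagonal network best known under the corneal endothelium, was 82.7, 213.3 and 151.1 in control and 137.1, 364.6, 452.4 and 166.2 in CLA glands. Its log2 change, 0.84 ± 0.47 (SE) with an interval from -0.22 to 1.90, was the largest of the tested chains, and its groups overlapped. It was 0.46 without control replicate 1, 0.55 without CLA replicate 3 and 0.73 and 0.75 in the 27 and 28 sets. Col25a1, a transmembrane type, was 45.9, 65.2 and 53.4 in control and 50.5, 127.5, 138.3 and 37.3 in CLA glands, a change of 0.48 ± 0.50 (SE). Col8a1, the partner of Col8a2, did not share the pattern and had 0.26 ± 0.42 (SE), with control replicate 3 and CLA replicate 4 lowest.

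The remaining chains grouped here as fibril-associated had changes of 0.61 for Col12a1, 0.32 for Col14a1 and 0.40 for Col16a1, each with overlapping groups. Col12a1 was 1244 on CLA replicate 3 and 246.9 on control replicate 3, against 476.8 to 567.7 on the 5 other arrays. Its change was 0.30 without the first and 0.23 without the second of these arrays, and 0.06 in the 27 set and 0.86 in the 28 set. On the dimmer probe set of Col12a1 above the filter CLA replicate 3, at 269.9, was the lowest CLA array. Col14a1 was 2422 on CLA replicate 3 against 910.5 to 1568 on the 6 other arrays, and its change was 0.09 without that array. The dim chains of this group, Col20a1 and Col22a1, had -0.08 and 0.15. Of the transmembrane collagens, Col13a1 had 0.55 ± 0.32 (SE), with 1.09 in the 27 set and 0.33 in the 28 set. Col23a1 had -0.12 ± 0.45 (SE), with -0.84 and 0.17. They came from signals between 55.7 and 123.6 and between 35.2 and 96.4.

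CLA replicate 3 was the highest of the 7 arrays for 16 of 33 chains, 48.5%, whereas it was the highest for 20.5% of all genes tested. Those 16 held 5 of 8 fibrillar, 1 of 7 basement membrane, 3 of 3 type VI and 7 of 15 other chains. The counts rest on the brightest probe set of each chain. CLA replicate 3 was not the highest array on the dimmer probe set above the filter of Col4a5 and Col12a1, nor on every one of Col5a1. It was the highest on those of Col1a1, Col1a2, Col6a2, Col9a3, Col11a1, Col14a1 and Col27a1. Control replicate 1 was the lowest array for 12 chains, 36.4%, against 14.9% of all genes, and 5 of these were fibrillar. The score over the 33 chains was -0.25, -0.15 and -0.08 in control and -0.04, 0.10, 0.44 and -0.01 in CLA glands. The groups did not overlap in this score, CLA replicate 3 stood above the other CLA arrays, and the gap from the highest control array, at -0.08, to the lowest CLA array, at -0.04, was smaller than the SD of either group, 0.08 and 0.22. Without CLA replicate 3 the median change of the chains was 0.12, with 25 of 33 above 0, against 0.29 and 27 with it. Its 3′ to 5′ ratios for Actb and Gapdh exceeded those of the 6 other arrays, and the part of RNA quality in its collagen signals was not tested.

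**Figure D3:**
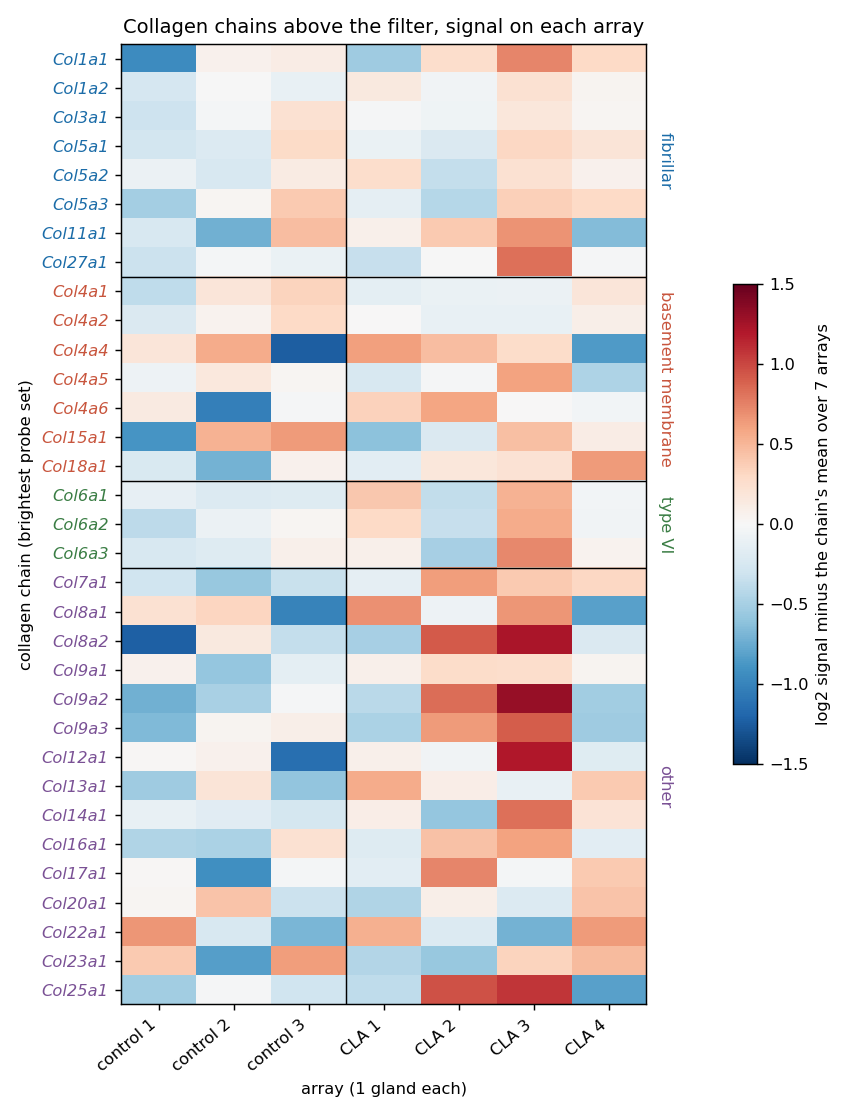
Heat map of log2 signal minus the chain's mean over 7 arrays, for 33 collagen chains (rows, by class) on each array (columns, control left of the line and CLA right). CLA replicate 3 is the highest array for 16 chains and control replicate 1 the lowest for 12.

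The classes ranked arrays differently. The fibrillar score was -0.37, -0.14 and 0.18 in control and -0.08, -0.06, 0.44 and 0.03 in CLA glands, so that control replicate 3 lay above 3 of the 4 CLA arrays. The basement membrane score was -0.21, -0.04 and 0.01 in control and -0.03, 0.11, 0.19 and -0.05 in CLA glands. The score of the other collagens was -0.21, -0.20 and -0.28 in control and -0.07, 0.27, 0.52 and -0.02 in CLA glands, and in this class alone of the 4 the groups did not overlap. Fibrillar minus basement membrane score was -0.16, -0.10 and 0.16 in control and -0.06, -0.17, 0.25 and 0.08 in CLA glands. Those ranges overlapped, so the 2 classes were not separated from each other by diet. Fibrillar minus other score was -0.16, 0.06 and 0.46 in control and -0.01, -0.33, -0.08 and 0.06 in CLA glands, with overlap as well.

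White adipocyte markers differed more between diets than any collagen class did in score. The 6 of 8 with a probe set of their own had scores of 0.80, 1.14 and 0.87 in control and -1.12, -1.13, -0.95 and 0.39 in CLA glands, with a summed signal of 34039 to 43357 and 10128 to 28508. Their part in the changes of the chains was not tested. CLA replicate 4, the CLA array with the highest adipocyte score, had collagen class scores between -0.05 and 0.03. On the other CLA arrays the class scores ran from -0.08 to 0.26 on replicate 1, from -0.40 to 0.27 on replicate 2 and from 0.19 to 0.60 on replicate 3.

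**Figure D4:**
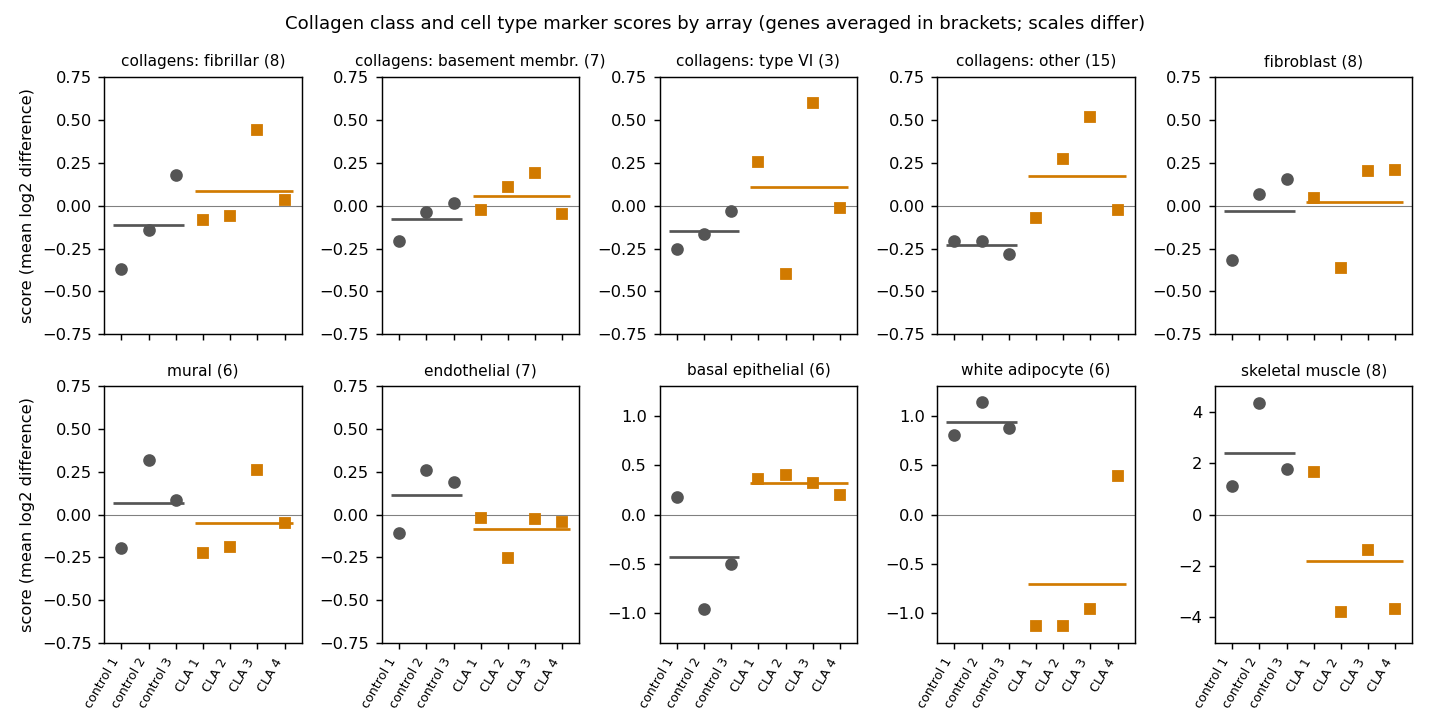
Scores of the 4 collagen classes and of 6 lists of cell type markers on each array, each the average over a list of centred log2 signals (vertical axes differ in range), control in grey circles and CLA in orange squares, with lines at group means. The other collagens, the basal epithelial and the white adipocyte markers show no overlap between the groups, while the fibrillar, basement membrane and type VI scores overlap.

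Several chains are measured by more than 1 probe set, which gives more than 1 reading of the same gene. The 42 chains have 82 probe sets, and 17 chains have more than 1 above the filter. In 15 of the 17 all such probe sets had changes of the same sign, and in 2, Col4a5 and Col5a1, they did not. The size differed more. Col1a1 had 0.44 on its brightest probe set and 0.11 on the other, Col3a1 0.06 and 0.34, Col27a1 0.26 and 0.69, and Col12a1 0.61 and 0.77. On the dimmer probe set of Col27a1 (144.6 to 194.2 in control, 210.3 to 368.4 in CLA) and that of Col12a1 (164.3 to 265.6 and 269.9 to 450.0) the groups did not overlap, whereas they did on the brightest. These 2 were named, among 51 probe sets of the chains above the filter, after the values were seen. The share of all probe sets without overlap was not worked out. Other chains had probe sets with closer changes. The changes on the probe sets of Col4a1, -0.08 and -0.08, and of Col6a2, 0.27 and 0.25, were close.

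**Figure D5:**
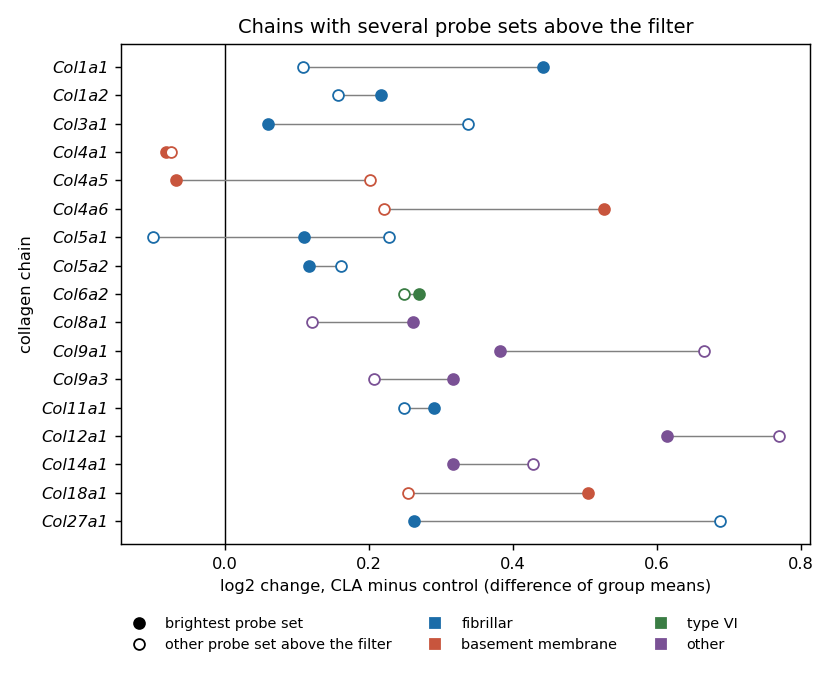
Log2 change, CLA minus control, of each probe set above the filter for the 17 collagen chains with more than 1 (filled, the brightest; open, the others; coloured by class). Col4a5 and Col5a1 have probe sets on both sides of 0.

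The 9 chains below the filter were Col2a1, Col4a3, Col6a4, Col6a5, Col10a1, Col11a2, Col19a1, Col24a1 and Col26a1. Their highest signals ran from 33.9 for Col24a1 to 146.2 for Col2a1, the chain of cartilage fibrils. Detection calls were not used here, so whether these RNAs were present is not known. Col10a1, of hypertrophic cartilage, was 3.9, 7.2 and 4.6 in control and 55.3, 29.2, 11.3 and 29.0 in CLA glands. The groups did not overlap, but every value was below the filter signal of 57.7, where MAS5 signals carry background.

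Genes that make, process and bind collagen were followed beside the chains, in 5 lists of 43 genes of which 33 were tested. None passed (0 of 33 at limma's adjusted p under 0.05), 3 had an unadjusted p under 0.05 with higher signal (2.38% of all genes) and 0 with lower (3.01%), and the median change was 0.11, with 21 above 0 (55.3% of all genes). The groups did not overlap for 2 of the 33, P3h3 and Bmp1, both higher in CLA (2.64% of all genes), and for 0 lower in CLA (2.67%). Among 12 hydroxylases and glycosyltransferases, which modify the chains in the endoplasmic reticulum, 9 were above 0 with a median of 0.17. P3h3, of the prolyl 3-hydroxylase family, was 182.7, 183.2 and 171.9 in control and 237.2, 211.9, 363.1 and 280.6 in CLA glands, without overlap. Its change was 0.58 ± 0.23 (SE), with a limma adjusted p of 0.878. P3h4, a partner of the lysyl hydroxylases, had 0.34, Colgalt1, which adds galactose to hydroxylysine, 0.20, and P3h1, another prolyl 3-hydroxylase, -0.26.

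Among 6 genes of chaperones and export, with a median of 0.06, Crtap, a subunit of the prolyl 3-hydroxylase complex, had the smallest p with a change of 0.32 ± 0.14 (SE) and overlapping groups. Fkbp14, a peptidyl prolyl isomerase, had 0.31, Mia3, which loads procollagen into transport carriers, -0.16, and Tmem38b, an ion channel of the endoplasmic reticulum, -0.11. Bmp1, the proteinase that removes the C-propeptides of fibrillar procollagens and so permits assembly, was 501.9, 393.9 and 500.7 in control and 629.8, 736.4, 730.4 and 794.6 in CLA glands. All CLA arrays lay above all control arrays. The log2 change of Bmp1 was 0.64 ± 0.17 (SE), 0.33 in the 27 set and 0.76 in the 28 set, and the limma adjusted p was 0.688. The 3 other procollagen processing genes tested were Adamts3, at 0.48, Pcolce, at 0.27, and Pcolce2, at -0.37. The 4 cross-linking enzymes had 0.37 for Loxl3, 0.24 for Loxl1, -0.03 for Lox and -0.05 for Loxl4. Of 7 receptors and uptake genes 3 were above 0, with a median of -0.04, and those of smallest p were the integrin gene Itga1 at -0.49, Ddr1, a receptor tyrosine kinase, at -0.17, Lair1, an inhibitory immune receptor, at 0.11, and Mrc2, which takes up collagen fragments, at 0.15.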

How the data were processed

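The authors deposited MAS5 signal intensity values of 7 arrays on a linear scale, per the labels and the submitters' processing notes; the MAS5 version was not given in the sources used here. The trimmed mean, with 2% removed at each end, was 500.003 on each array. Groups came from the diet in the labels. The labels speak of a mouse per sample but number no animals; if arrays share one, p-values measure only the spread between these samples. A floor of 1 was applied before taking log2. The 64 control probe sets were left out, 34945 probe sets had 1 gene symbol (932 had several, 9160 none), and 34741 of these were matched by Entrez identifier to RefSeq names of GRCm38.p6. The filter was the 40th percentile of mean log2 signal. The contrast of CLA against control came from limma 3.58.1 under R 4.3.3 (lmFit, then eBayes with a trend; prior degrees of freedom 4.53). Tests were two-sided, with Benjamini-Hochberg adjustment over 12497 genes and a threshold of 0.05. Members and lists were chosen with earlier results of these data known. Every tested chain is named; values on each array are given for the chains of types I, III and VI, Col4a1, Col4a2 and the 3 of smallest p per class, and other chains were chosen after their values were seen. Of each list of collagen-related genes up to 4 of smallest p are named. On simulated data of 12497 genes, 200 of them changed, limma recovered 37% of genes changed 2-fold and 84.8% of those changed 4-fold, with 8.4 false calls on average over 5 runs. The simulated noise was independent for each gene and array, so variation that genes share on an array was left out. Alternatives were other scalings, pseudocounts, filters, moderation and array weights, averages over probe sets of 1 gene, the title number as a block or its 28 set alone, the muscle score as a covariate, and each array left out. Plots used matplotlib 3.10.9 (Python 3.11.15).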

Additional observations from a re-analysis of the deposited data

Results flagged for a closer look

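Within the CLA group, 1 array stood apart from the other 3 for 2 of the 42 chains examined, and chance flags about 1 in 20 such groups. Col4a1 signal was 8412 on CLA replicate 4 against 6701 to 6954 on the other CLA arrays. Col19a1, below the filter, was 6.4 on CLA replicate 4 against 41.6 to 60.8. Among the chains not tested, Col10a1 had CLA values all above the control values, with a log2 difference of 2.42 between signals below the filter. The causes were not tested.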

How the results depend on the processing

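Of the 33 chains tested, 14 kept the sign of their change under all 21 alternatives, 3 (Col8a2, Col13a1 and Col25a1) under the 20 that left them in, being too dim for the 60th percentile filter, and 16 did not keep it, and 0 chains were called at an adjusted p under 0.05 under any of them. The number at an unadjusted p under 0.05 with higher signal, 2 as reported, was 4 with median centring, 3 without a filter, 1 with eBayes without trend, 5 with array weights, 3 with the title number as a block, 3 within title numbers starting with 28, and 1 to 5 with an array left out. That with lower signal was 0 to 1 with an array left out. The number without overlap, 1 as reported, was 2 with quantile normalization, 3 with median centring, 3 with the mean of probe sets, 2 without a filter, 6 within title numbers starting with 28, and 1 to 4 with an array left out. The share of all genes under each of these alternatives was not worked out, for p or for overlap. Groups of fewer arrays separate more often by chance. These counts are therefore not to be set against the background shares given above. Without a filter the counts and class medians cover all 42 chains, which adds the 9 dim ones to the 33. The basement membrane median was 0.11 without a filter and -0.13 to 0.07 with an array left out, and the type VI median was 0.65 with the muscle score as a covariate and 0.02 with array weights. Signs turned for these changes. Quantile normalization gave Col20a1 0.01. Median centring gave Col4a2 0.01, Col4a5 0.01 and Col20a1 0.0042. The mean of probe sets gave Col4a4 -0.30, Col4a5 0.07, Col5a3 -0.80 and Col22a1 -0.66. Array weights gave Col3a1 -0.12, Col5a1 -0.17, Col5a2 -0.11, Col5a3 -0.34, Col6a3 -0.10 and Col20a1 0.11. Title numbers starting with 28 gave Col3a1 -0.06, Col5a3 -0.13, Col20a1 0.05 and Col23a1 0.17. The muscle score gave Col4a5 0.05, Col17a1 -0.21 and Col18a1 -0.0048. With an array left out the range was -0.08 to 0.19 for Col3a1, -0.29 to 0.06 for Col4a1, -0.21 to 0.05 for Col4a2, -0.24 to 0.66 for Col4a4, -0.28 to 0.07 for Col4a5, -0.19 to 0.27 for Col5a3, -0.01 to 0.40 for Col6a3, -0.16 to 0.57 for Col8a1, -0.64 to 0.12 for Col15a1, -0.26 to 0.11 for Col20a1, -0.15 to 0.52 for Col22a1 and -0.56 to 0.16 for Col23a1. The causes were not tested. Dim chains carry background in their signals. The labels give no replicate numbers shared between the diets, so the only block fitted was the title number.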
